A study of Rattus norvegicus and Mus musculus with 22 samples.

Results

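The immediate early genes are the first genes that a stimulated cell transcribes, and 10 of them were followed here by symbol: the AP-1 subunit genes Fos, Fosb, Jun, Junb and Jund, the transcription factor genes Egr1, Atf3 and Nr4a1, the phosphatase gene Dusp1, and Ier2. The mouse table held all 10 of them among 25683 symbols, and each rat table held 9 among 22081. Expression of rat Ier2 was not analysed here, though its promoter was searched. The 16 rat libraries came from animals given Sugen and hypoxia, a model of pulmonary hypertension that joins a blocker of the VEGF receptor to low oxygen, and every rat of either genotype had this treatment. IL6KO rats, which lack the cytokine gene Il6, were compared with wild-type (WT) rats in CD4-positive cells isolated from lung with magnetic beads (MACS) at day 7 (2 libraries of each genotype), in whole lung at day 56 (3 of each) and in whole lung at day 7 (3 of each). The other 6 libraries were CD4+ T cells from the spleens of 3 Ai14; SM22alpha-Cre mice, which were sorted by FACS into tdTomato-positive and tdTomato-negative cells. In these mice a promoter best known from smooth muscle drives Cre, and Cre switches on the red tdTomato reporter for good. The labels name no untreated rats and give neither the strain nor the age of any animal. They do not say that numbered rat libraries are separate animals, so errors and p-values below measure the spread between these libraries.

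AP-1 is a dimer of a Fos protein with a Jun protein, or of 2 Jun proteins, that binds short DNA sites in front of many genes of activation, growth and stress. Its genes need no new protein to be switched on: kinases of the MAP kinase and cAMP pathways modify factors that already sit on their promoters, and the RNA appears and decays quickly. In T cells, antigen receptor signals bring up the same genes, and AP-1 together with NFAT then acts on cytokine genes. Several members also turn the response down again, among them Dusp1, which removes phosphate from MAP kinases, and Atf3, which can repress transcription.

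The promoters of 3 members are shown because they carry the cAMP response element (CRE, TGACGTCA) or its half-site TGACG, to which CREB and ATF proteins bind, and because Dusp1 and Nr4a1 were among the genes that differed between genotypes in the isolated cells. Each runs from 250 bases before to 50 bases after the start of the gene in RefSeq's rat assembly GRCr8. Dusp1 lies on the plus strand at chr10:17184603-17184902, Jund on the minus strand at chr16:18769722-18770021 and Nr4a1 on the plus strand at chr7:134259888-134260187. Capitals mark the CRE or a half-site on either strand.
Dusp1: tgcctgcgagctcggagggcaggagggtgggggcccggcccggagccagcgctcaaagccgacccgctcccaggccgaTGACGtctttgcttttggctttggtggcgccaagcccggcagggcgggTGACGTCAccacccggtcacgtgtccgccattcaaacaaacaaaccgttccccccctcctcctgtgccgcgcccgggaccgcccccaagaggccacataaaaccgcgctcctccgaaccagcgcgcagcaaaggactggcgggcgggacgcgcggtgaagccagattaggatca
Jund: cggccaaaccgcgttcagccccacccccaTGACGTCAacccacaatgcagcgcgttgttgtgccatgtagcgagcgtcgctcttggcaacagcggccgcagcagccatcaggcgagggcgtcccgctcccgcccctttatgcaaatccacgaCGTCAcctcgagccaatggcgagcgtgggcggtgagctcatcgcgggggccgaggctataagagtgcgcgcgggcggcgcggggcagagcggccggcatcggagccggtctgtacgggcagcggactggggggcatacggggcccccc
Nr4a1: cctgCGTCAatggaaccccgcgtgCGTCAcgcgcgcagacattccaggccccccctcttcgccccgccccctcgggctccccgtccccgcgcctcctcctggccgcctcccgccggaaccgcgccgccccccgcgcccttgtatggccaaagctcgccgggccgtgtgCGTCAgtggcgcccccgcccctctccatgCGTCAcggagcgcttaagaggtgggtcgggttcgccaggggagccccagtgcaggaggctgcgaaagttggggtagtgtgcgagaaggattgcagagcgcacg
The Dusp1 promoter had 1 full CRE, at position -124 from the start, and a separate half-site at -172. The Jund promoter had 1 full CRE, at -221, and a separate half-site at -98. The Nr4a1 promoter had no full CRE but 4 half-sites, at -246, -226, -82 and -53. A full CRE contains the half-site on both strands, so these counts overlap. Of the other promoters searched, that of Ier2 had 1 full CRE at -66, that of Junb had 1 half-site at -155, and that of Fosb had neither. The promoters of Fos, Jun, Atf3 and Egr1 were not used here. Of all 33469 promoters in the table, 1.83% held the full CRE and 21.2% held a half-site. The CArG box of serum response factor was found in 1.64% of all promoters and the AP-1 site TGANTCA in 7.33%. Neither was in any of the 6 windows searched, on either strand. These windows leave out Fos, Jun, Atf3 and Egr1, so nothing follows for those genes. These matches describe letters in a window and do not show binding.

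The libraries held 14415060 to 23590070 counts in whole lung, 11477533 to 12930732 in lung CD4-positive cells and 8737138 to 12560401 in spleen. Il6 itself was too low to check the genotypes well. It had 8 and 17 counts in IL6KO isolates, against 48 and 20 in WT isolates, 0 to 3 counts in IL6KO lungs at day 56, against 5 or 6 in WT lungs, and 2 to 8 counts in IL6KO lungs at day 7, against 5 to 11 in WT lungs. The lung isolates, labelled as CD4-positive cells, carried T cell markers. A list of 18, Cd3e among them, summed to 4393 to 5407 CPM (counts scaled to the library total) in the 4 isolates. In day 7 lung the same list summed to 96.5 to 147 CPM. The isolates were not T cells alone. In the isolates 11 macrophage and monocyte markers summed to 8214 to 12826 CPM, 7 erythroid markers to 2448 to 17066 CPM, 9 epithelial markers to 759.9 to 3217 CPM and 8 neutrophil markers to 386 to 1136 CPM. In the splenic cells, 18 T cell markers summed to 11813 to 12694 CPM, 12 macrophage markers to 35.8 to 92.3 CPM, and the surfactant genes Sftpc, Sftpb and Sftpa1 were at 0 counts.

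Measured as a share of all counts, the immediate early genes were prominent in both kinds of isolated CD4 cells and minor in whole lung. The 9 rat genes together took 0.875% and 0.894% of the counts in IL6KO isolates, and 0.585% and 0.680% in WT isolates. They took 0.0864% to 0.137% in IL6KO lungs and 0.0759% to 0.154% in WT lungs at day 56, and 0.0537% to 0.0637% in IL6KO lungs and 0.0519% to 0.0641% in WT lungs at day 7. In the mouse spleen the 10 genes took 0.595% to 0.929% of counts in tdTomato-positive cells and 0.639% to 0.968% in tdTomato-negative cells. Most of the splenic share was Junb alone, with 3295 to 6630 CPM. Splenic Fosb (3.67 to 7.14 CPM) and Atf3 (0.470 to 11.1 CPM) were low, and the other genes lay between. The ranges of isolates and lungs did not overlap, and the shares of IL6KO isolates lay above those of WT isolates, whereas the 2 genotypes overlapped in lung on either day.

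**Figure D1:**
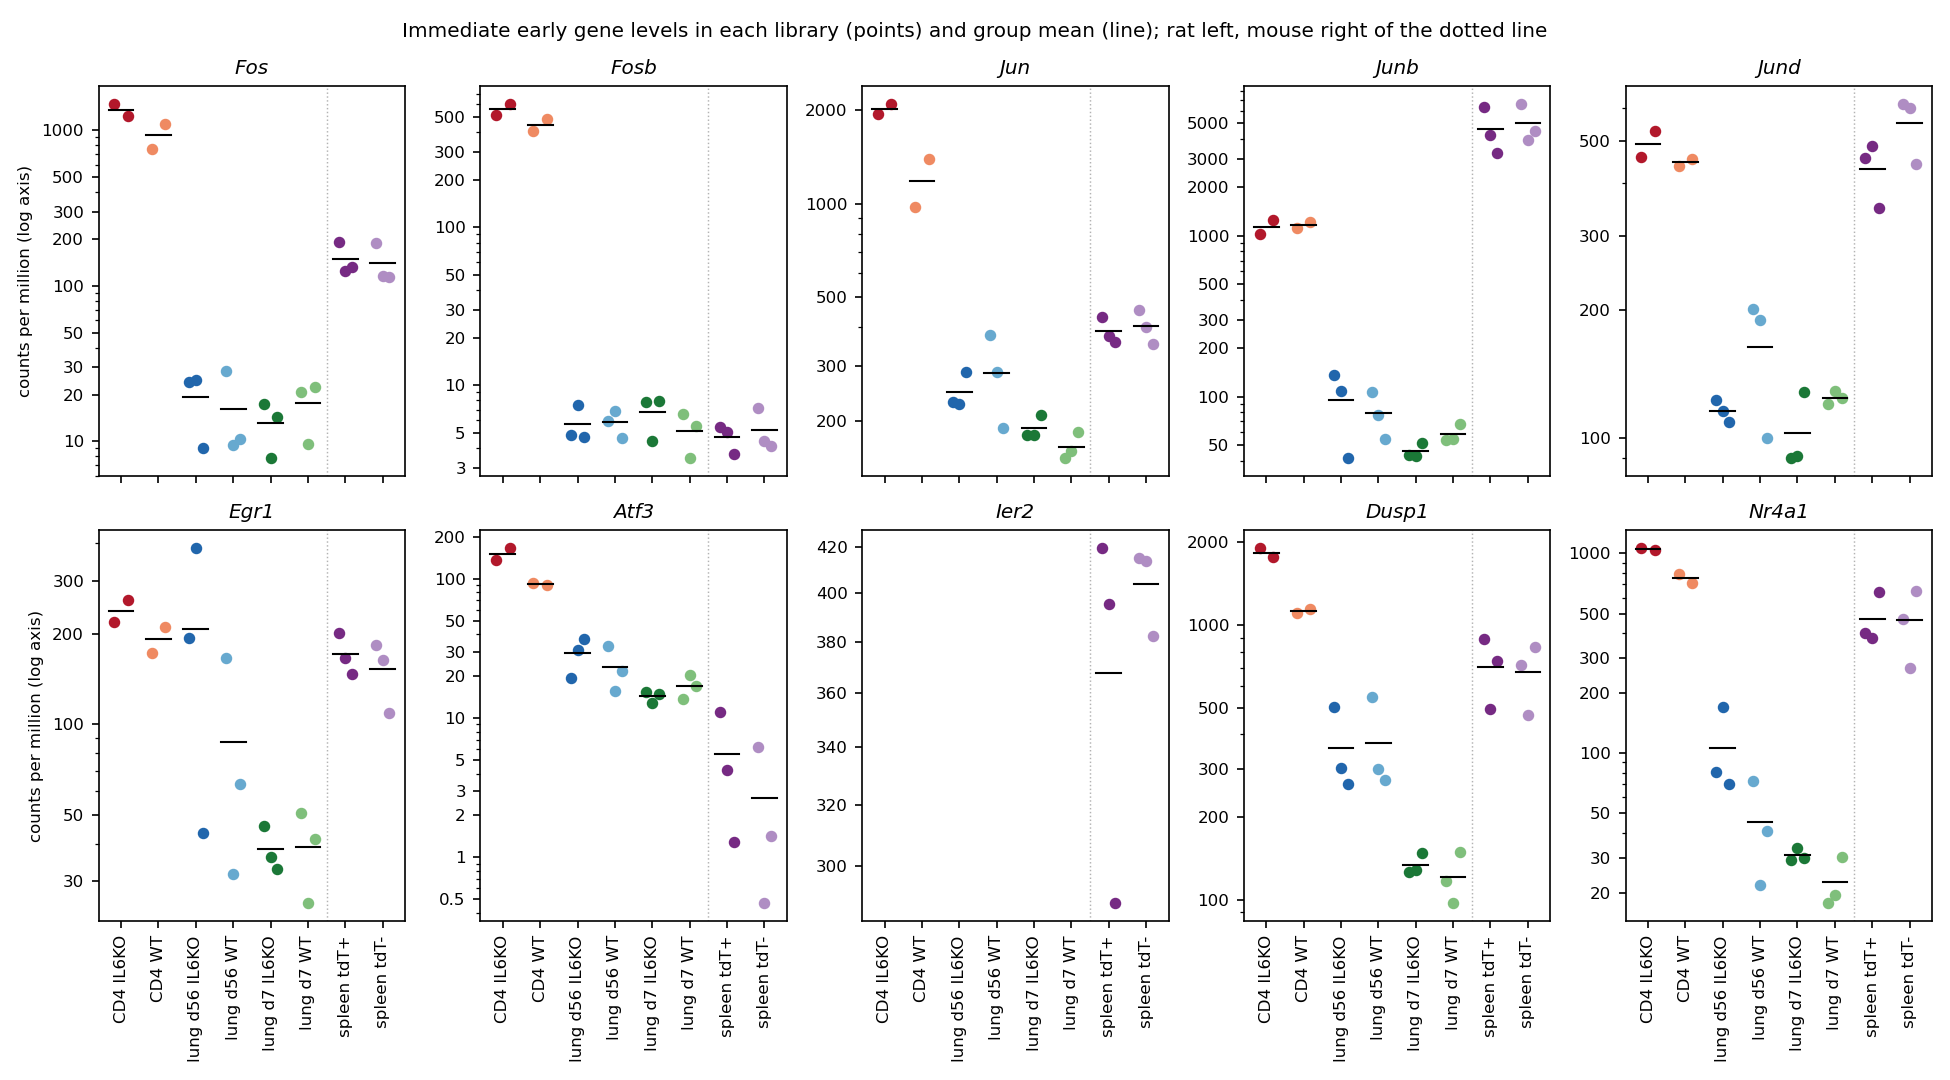
Level of each immediate early gene in CPM (log axes, a different range in each panel) in every library (points) with the group mean (line), rat groups left and mouse groups right of the dotted line. All 9 rat genes were higher in each lung CD4 isolate than in any day 7 lung. Ier2 is plotted for mouse.

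The first comparison set the isolated lung CD4-positive cells against whole lung at day 7, with the 2 genotypes weighted equally. All 9 genes rose in the isolates in edgeR's quasi-likelihood test (adjusted p under 0.05), by a median of 3.74 on the log2 scale. This comparison called 86.1% of the 14772 genes tested, 39.9% of them higher in the isolates, so being called says little here and the size of a change says more. The median over all genes tested was -0.12. Cells, their preparation and the count table all differ between isolates and lung and cannot be told apart. In whole lung, fewer cells that express a gene and less RNA per cell cannot be told apart either.

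Fos and Fosb, whose proteins pair with Jun proteins, had the largest changes. Fos stood at 1479 and 1226 CPM in IL6KO isolates and 759.7 and 1097 CPM in WT isolates, against 7.76 to 22.3 CPM with a median of 15.8 CPM in the 6 day 7 lungs. The lowest isolate was far above the highest lung, and the fitted difference was 88.0-fold (log2 fold change 6.46, SE 0.33, edgeR adjusted p = 3.42e-07). Fosb, a gene nearly silent in resting cells, had 516.3 and 605.0 CPM in IL6KO isolates and 405.2 and 483.5 CPM in WT isolates, against 3.43 to 7.98 CPM with a median of 6.0 CPM in lung. It had the largest change of the set, 102-fold (log2 fold change 6.67, SE 0.20, edgeR adjusted p = 2.58e-10). Of all 14772 genes tested, 41 had a log2 fold change at least as high as that of Fosb and 53 at least as high as that of Fos.

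The 3 Jun genes rose by unequal amounts. Junb, which acts both with Fos proteins and in T helper cell programs with Batf, had 1029 and 1249 CPM in IL6KO isolates and 1113 and 1215 CPM in WT isolates, against 42.4 to 67.7 CPM with a median of 52.9 CPM in lung. Its log2 fold change was 4.72 (SE 0.10, edgeR adjusted p = 3.64e-13), and 1.31% of genes tested reached it. Jun, the classic partner of Fos, had 1945 and 2099 CPM in IL6KO isolates and 975 and 1393 CPM in WT isolates, against 151.0 to 209.0 CPM with a median of 179.7 CPM in lung (log2 fold change 3.38, SE 0.10, edgeR adjusted p = 7.39e-12). Jund, the member of the family that resting cells also express, had 459.3 and 529.6 CPM in IL6KO isolates and 438.4 and 455.3 CPM in WT isolates, against 89.6 to 129.3 CPM with a median of 122.1 CPM in lung. Jund had the smallest change of the 9, at 2.31 on the log2 scale (SE 0.10, edgeR adjusted p = 2.33e-10), and 6.07% of genes tested reached it. For none of the 3 did isolates and lungs overlap. All 4 isolates lay above all 6 lungs in 28.4% of the genes tested.

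Among the other transcription factors, Nr4a1, an orphan nuclear receptor gene that T cell receptor signals induce within the first hours, stood out. It had 1063 and 1039 CPM in IL6KO isolates and 790.5 and 714.0 CPM in WT isolates, against 17.8 to 33.4 CPM with a median of 29.5 CPM in lung. That is a log2 fold change of 5.33 (SE 0.14, edgeR adjusted p = 9.99e-12), which 126 of the 14772 genes reached. Atf3, a stress-induced partner of Jun proteins, had 136.6 and 166.2 CPM in IL6KO isolates and 93.7 and 90.7 CPM in WT isolates, against 12.8 to 20.3 CPM in lung (log2 fold change 3.16, SE 0.10, edgeR adjusted p = 2.07e-11). Egr1, a zinc finger gene induced through MAP kinase and serum response factor, had 218.3 and 258.6 CPM in IL6KO isolates and 173.0 and 211.0 CPM in WT isolates, against 25.4 to 50.6 CPM in lung (log2 fold change 2.72, SE 0.18, edgeR adjusted p = 3.37e-07). Isolates and lungs were apart for each of these genes. Dusp1, the MAP kinase phosphatase, had 1901 and 1766 CPM in IL6KO isolates and 1105 and 1139 CPM in WT isolates, against 97.5 to 149.8 CPM in lung (log2 fold change 3.74, SE 0.11, edgeR adjusted p = 8.45e-12). Against the day 56 lungs, Egr1 overlapped with the isolates: it had 173.0 to 258.6 CPM in isolates and 31.7 to 385.0 CPM in day 56 lungs.

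Most other immediate early genes rose too, while the kinases and factors upstream of them were split. Of 42 other immediate early genes tested, 34 rose and 6 fell in the isolates, with a median of 2.82 on the log2 scale. The kinase gene Pim1 had a log2 fold change of 6.10 (SE 0.08), the phosphatase gene Dusp5 of 5.07 (SE 0.09), the NF-kappaB regulator gene Nfkbiz of 4.68 (SE 0.08) and the antiproliferative gene Btg2 of 3.31 (SE 0.06). Among the 6 that fell were Ccn1 and Ccn2, at -3.42 and -5.58, matricellular genes that fibroblasts and endothelial cells express. Of 14 other AP-1 family genes, 10 rose and 4 fell, with a median of 1.01. Among those that rose were Batf (4.13, SE 0.16), a partner of Jun proteins in T cells, Fosl2 (2.64, SE 0.13), a Fos family member, and Atf4 (1.94, SE 0.06), a factor of the integrated stress response. Of 22 upstream genes of the MAP kinase, serum response and CREB pathways, 13 rose and 7 fell, with a median of 0.30. Crem, an inducible factor of the cAMP pathway, rose by 3.19 (SE 0.11) and the kinase gene Mapk3 fell by 1.78 (SE 0.06).

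Other lists moved alongside. Of 14 heat shock genes 13 rose, with a median of 1.20, including Dnajb1 at 2.42 (SE 0.09) and Hspa8 at 1.38 (SE 0.05). All 18 T cell markers rose (median 5.79, from 4.49 to 7.96), as did 16 of 17 T cell activation genes (median 5.30), for instance Cd69 at 7.27 (SE 0.11) and Il2ra at 5.30 (SE 0.07). So the median change of the T cell markers was above the 3.74 of the immediate early genes, and 2 of the 9, Fos and Fosb, lay above that median. Of 10 macrophage markers 6 rose and 2 fell (median 1.82), and 4 of 6 neutrophil markers rose (median 3.68). All 9 endothelial, 9 epithelial, 8 smooth muscle and 7 fibroblast markers fell, with medians of -6.30, -4.24, -6.23 and -5.69. The part of these cell types and of the heat shock genes in the immediate early result was not tested.

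**Figure D2:**
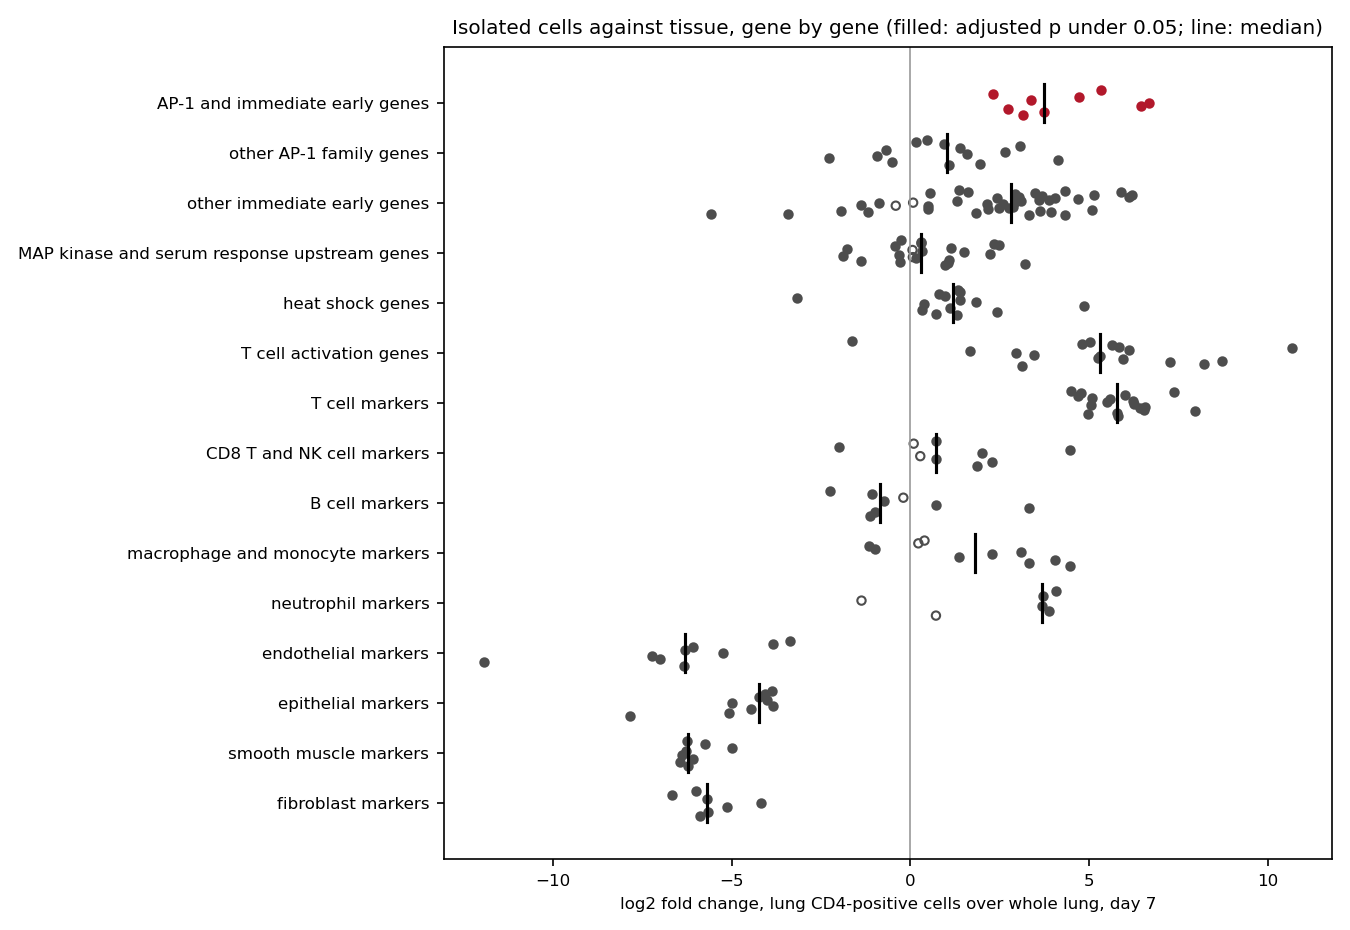
Log2 fold change of each gene (points) between lung CD4-positive cells and whole lung at day 7, by gene list, with the median of each list as a line. Filled points passed an adjusted p of 0.05 in edgeR. The 9 immediate early genes run from 2.31 to 6.67, and their median of 3.74 lies between those of the T cell markers (5.79) and the heat shock genes (1.20).

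Within the isolated CD4-positive cells, the comparison of IL6KO with WT asked whether loss of Il6 changed these genes. Dusp1, Atf3 and Nr4a1 rose in IL6KO isolates, and 8 of the 9 genes had a positive log2 fold change, with a median of 0.45. In this comparison 6.40% of 12243 genes were called, 3.50% higher and 2.91% lower, and the median of all genes was 0.00. The called share of the 9 was thus above that of all genes, with 2 libraries of each genotype behind it. For 8 of the 9, both IL6KO isolates lay above both WT isolates in CPM, as did 30.1% of the 12243 genes, and Junb was the exception.

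Dusp1 had 1901 and 1766 CPM in IL6KO isolates, against 1105 and 1139 CPM in WT isolates. The 2 genotypes were well apart, with replicates within each close together, and the log2 fold change was 0.68 (SE 0.07, edgeR adjusted p = 0.00536). Atf3 had 136.6 and 166.2 CPM in IL6KO isolates, against 93.7 and 90.7 CPM in WT isolates (log2 fold change 0.69, SE 0.11, edgeR adjusted p = 0.0172). Nr4a1 had 1063 and 1039 CPM in IL6KO isolates, against 790.5 and 714.0 CPM in WT isolates (log2 fold change 0.45, SE 0.09, edgeR adjusted p = 0.0257). The genes of the feedback phosphatase, of the stress factor and of the nuclear receptor were each between 1.37-fold and 1.61-fold higher.

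The AP-1 subunits themselves did not pass. Jun had the largest fitted difference of the 9, with 1945 and 2099 CPM in IL6KO isolates, against 975 and 1393 CPM in WT isolates. The WT isolates differed from each other, and the log2 fold change of 0.75 (SE 0.17) had an edgeR adjusted p of 0.0794. DESeq2 called it (adjusted p = 0.000206) and so did limma-voom (adjusted p = 0.0486). Fos had 1479 and 1226 CPM in IL6KO isolates, against 759.7 and 1097 CPM in WT isolates (log2 fold change 0.52, SE 0.20, edgeR adjusted p = 0.228), and DESeq2 called it too (adjusted p = 0.0423). Fosb, at 0.31 (SE 0.11, edgeR adjusted p = 0.160), Egr1, at 0.29 (SE 0.12, edgeR adjusted p = 0.225), and Jund, at 0.12 (SE 0.09, edgeR adjusted p = 0.494), had smaller values. Junb had 1029 and 1249 CPM in IL6KO isolates, against 1113 and 1215 CPM in WT isolates, and its log2 fold change of -0.06 (SE 0.11, edgeR adjusted p = 0.787) had a 95% interval from -0.31 to 0.19.

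**Figure D3:**
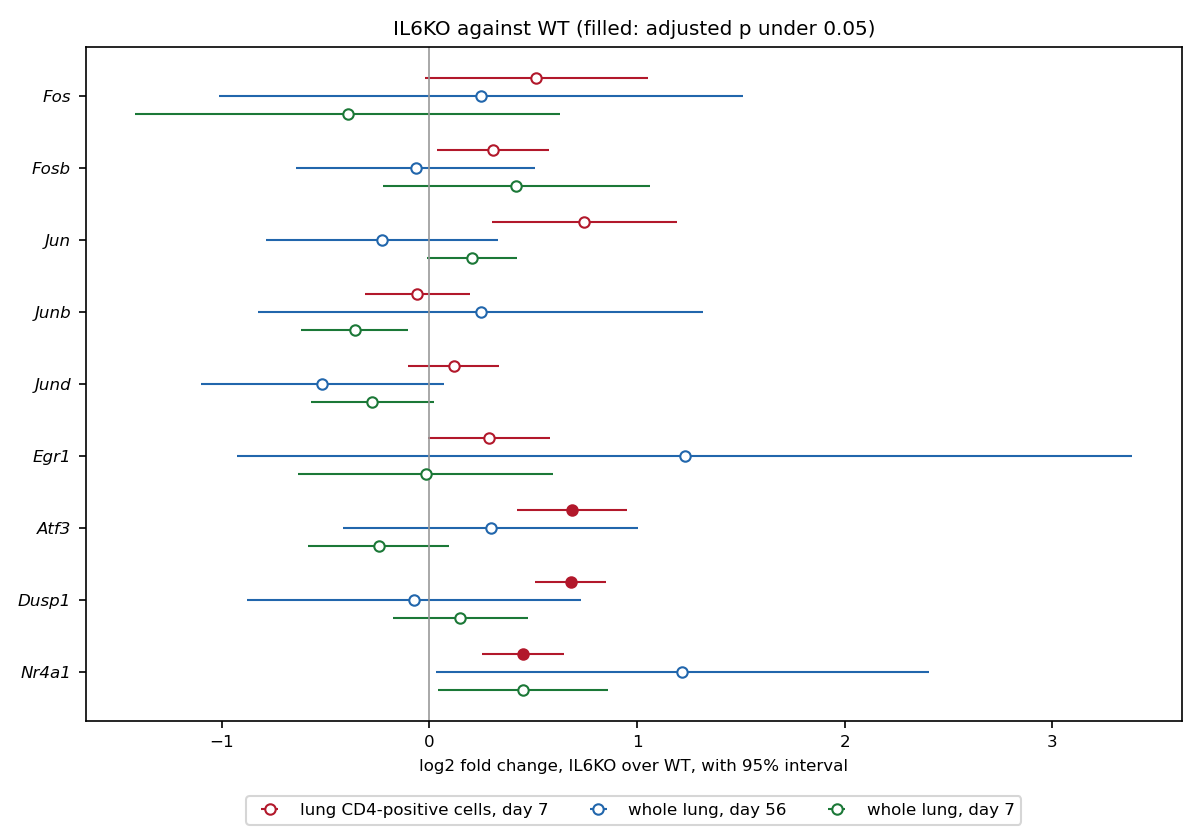
Log2 fold change of the 9 genes between IL6KO and WT (points) with 95% intervals (lines), in lung CD4-positive cells and in whole lung at day 56 and day 7. Filled points passed an adjusted p of 0.05 in edgeR: Atf3, Dusp1 and Nr4a1 in the isolated cells, and no gene in whole lung.

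These calls did not hold without either WT isolate, in fits that leave a lone WT library, and the cause was not tested. The sizes changed less. Without WT isolate 1 the log2 fold changes were 0.67 for Dusp1, 0.73 for Atf3 and 0.54 for Nr4a1. Without WT isolate 2 they were 0.69, 0.65 and 0.37 in the same order. Without WT isolate 1 none of the 9 was called (adjusted p = 0.0737 for Dusp1, 0.134 for Atf3 and 0.0993 for Nr4a1 in edgeR), and 76 genes in all. Without WT isolate 2, Jun was called (adjusted p = 0.0303), Dusp1, Atf3 and Nr4a1 were not (adjusted p = 0.0602, 0.136 and 0.164 in edgeR), and 115 genes were called in all. Their directions held in each case, and without either IL6KO isolate all 3 were called.

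Other genes of the program moved in both directions between the genotypes. Of 42 other immediate early genes, 5 rose and 1 fell in IL6KO isolates, with a median of 0.15. The ERK phosphatase gene Dusp6 rose by 0.61 (SE 0.10), Klf4 by 0.65 (SE 0.11) and the G protein regulator gene Rgs2 by 0.74 (SE 0.14), and the kinase gene Sgk1 fell by 0.77 (SE 0.14). Among 12 other AP-1 family genes, Jdp2, which can block AP-1 sites, rose by 0.94 (SE 0.18) and Batf fell by 1.19 (SE 0.13). Elk3 was the 1 of 22 upstream genes that was called, at 0.39 (SE 0.09), and of 14 heat shock genes Hsph1 rose by 0.58 (SE 0.09) and Hspa8 by 0.39 (SE 0.08).

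Marker genes of several cell types differed between the genotypes in the isolates as well. These are RNA levels, so a change in the number of cells and in RNA per cell cannot be told apart. Of 18 T cell markers 6 fell in IL6KO isolates, with a median of -0.30 and sums of 4393 and 4834 CPM, against 5288 and 5407 CPM in WT isolates. Of 16 T cell activation genes 5 fell (median -0.42), among them Il2ra at -0.72 (SE 0.09) and Icos at -0.69 (SE 0.08). Of 10 macrophage and monocyte markers 3 rose (median 0.52): Csf1r by 0.77 (SE 0.07), Adgre1 by 0.69 (SE 0.09) and Cd68 by 0.56 (SE 0.10). The macrophage sum of 9105 and 12826 CPM in IL6KO isolates lay above the 8214 and 8683 CPM in WT isolates. Of 9 epithelial markers 6 fell (median -1.89), with sums of 759.9 and 849.8 CPM in IL6KO isolates, against 2358 and 3217 CPM in WT isolates. Of the CD8 T and NK cell markers, Cd8a fell by 3.23 (SE 0.19). All 9 of that list summed to 188 and 302 CPM in IL6KO isolates, against 326 and 354 CPM in WT isolates. In the same order, neutrophil markers summed to 386 and 486 CPM, against 526 and 1136 CPM. B cell markers summed to 134 and 145 CPM in IL6KO isolates, against 106 and 107 CPM in WT isolates. All 7 erythroid markers had a positive log2 fold change (median 2.05, from 1.92 to 3.74), and 1 of them was called, Ahsp, which stabilises alpha globin, at 3.74 (SE 0.53). Their sum was 8050 and 17066 CPM in IL6KO isolates, against 2448 and 3754 CPM in WT isolates. No macrophage or erythroid marker was at 0 in IL6KO isolates, and Marco was at 0 in WT isolates. The part of these shifts in the rise of Dusp1, Atf3 and Nr4a1 was not tested.

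A fit over the 10 day 7 rat libraries tested whether the genotype difference in isolates departed from that in whole lung. Of the 9 genes only Atf3 was called, with a difference of differences of 0.85 on the log2 scale (SE 0.21, edgeR adjusted p = 0.0326), against a background of 6.42% of 14772 genes. Atf3 had 15.5, 12.8 and 14.9 CPM in IL6KO lungs, against 13.8, 20.3 and 17.0 CPM in WT lungs, so the lungs overlapped where the isolates did not. Dusp1 (0.45, SE 0.21, edgeR adjusted p = 0.248) and Jun (0.46, SE 0.20, edgeR adjusted p = 0.201) did not pass. Nr4a1 stood at -0.08 (SE 0.25, edgeR adjusted p = 0.896), with a log2 fold change of 0.45 in isolates and 0.45 in lung, each from its own fit. The Atf3 call ended in limma-voom (adjusted p = 0.0503) and in edgeR without IL6KO isolate 2 (0.121), WT isolate 1 (0.0989) or 2 (0.0988), IL6KO lung 2 (0.0602) or 3 (0.0506), or WT lung 2 (0.0505) or 3 (0.0625). Its value stayed between 0.70 and 0.89 in these fits. Without WT isolate 2, Jun was called instead (0.71, adjusted p = 0.0475), and without IL6KO lung 3, Jund (0.49, adjusted p = 0.0336, edgeR). The CD4 and lung values of a genotype come from separate tables. Of the other lists in the same contrast, 3 of 14 heat shock genes and 3 of 10 macrophage markers were higher, and 5 of 18 T cell and 8 of 9 epithelial markers lower, in the isolates relative to lung.

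In whole lung, no immediate early gene of the 9 passed the test between IL6KO and WT at either day. At day 7 edgeR gave 0 calls among them (2 genes with an unadjusted p below 0.05), and DESeq2 and limma-voom gave 0 calls each. The background was 2.09% of 14368 genes. Junb came closest, with 43.2, 42.4 and 51.7 CPM in IL6KO lungs, against 54.0, 54.6 and 67.7 CPM in WT lungs. It was the 1 gene of the 9 whose genotypes did not overlap at day 7, where 9.83% of all genes lay apart and lower in IL6KO, with a log2 fold change of -0.36 (SE 0.11, edgeR adjusted p = 0.175). Nr4a1 had 29.2, 33.4 and 29.8 CPM in IL6KO lungs, against 17.8, 19.5 and 30.3 CPM in WT lungs (log2 fold change 0.45, SE 0.18, edgeR adjusted p = 0.299). Without WT lung 3, which held the high WT value, Nr4a1 was called at 0.72 (adjusted p = 0.0191 in edgeR). Jund had 89.6, 90.9 and 128.2 CPM in IL6KO lungs, against 120.2, 129.3 and 124.1 CPM in WT lungs, and without IL6KO lung 3 it was called at -0.47 (adjusted p = 0.0134 in edgeR). Among 41 other immediate early genes, Gadd45g, a stress-response gene, fell by 0.53 (SE 0.10, edgeR adjusted p = 0.0382) and no other was called. Of 9 CD8 T and NK cell markers 4 rose in the same IL6KO lungs, including Prf1 by 1.38 (SE 0.15).

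At day 56 edgeR again gave 0 calls among the 9 (1 gene with an unadjusted p below 0.05), as did DESeq2 and limma-voom. The background was 0.0138% of 14475 genes, 2 genes in all. Egr1 had 193.1, 385.0 and 43.4 CPM in IL6KO lungs, against 166.6, 31.7 and 63.4 CPM in WT lungs. The spread within each genotype was larger than the difference between them, and the log2 fold change of 1.23 (SE 0.88, edgeR adjusted p = 0.571) had a 95% interval from -0.92 to 3.38. Nr4a1 had 80.2, 170.3 and 69.8 CPM in IL6KO lungs, against 72.7, 22 and 41.0 CPM in WT lungs (log2 fold change 1.22, SE 0.50, edgeR adjusted p = 0.433). The genotypes overlapped for all 9 genes, against 16.2% of all genes that lay apart in either direction. Jund had 123.2, 115.9 and 109.0 CPM in IL6KO lungs, against 201.1, 190.0 and 99.8 CPM in WT lungs, and without WT lung 3 it fell by 0.77 (adjusted p = 0.0139 in edgeR). Leaving out that library also brought the count over all genes to 1268. Of 41 other immediate early and 14 other AP-1 family genes tested at day 56, 0 were called in edgeR.

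Between day 56 and day 7, Dusp1, Nr4a1, Atf3 and Jun rose, and 8 of the 9 had a positive log2 fold change, with a median of 0.69. The background was 22.5% of 13865 genes, 11% higher at day 56 and 11.5% lower, and the median of all genes was 0.02. The days come from separate count tables, so day and table cannot be told apart.

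Dusp1 had 504.0, 302.0 and 263.0 CPM in IL6KO lungs and 546.6, 299.9 and 273.9 CPM in WT lungs at day 56, against 126.7, 128.8 and 147.9 CPM in IL6KO lungs and 116.8, 97.5 and 149.8 CPM in WT lungs at day 7. It was the 1 gene of the 9 with every day 56 lung above every day 7 lung, as in 5.29% of all genes, and it rose by 1.48 on the log2 scale (SE 0.22, edgeR adjusted p = 0.000758). Nr4a1 rose by 1.36 (SE 0.32, edgeR adjusted p = 0.0131), with 22 to 170.3 CPM and a median of 71.2 CPM at day 56, against 17.8 to 33.4 CPM and a median of 29.5 CPM at day 7. Jun rose by 0.55 (SE 0.14, edgeR adjusted p = 0.0169), with 189.8 to 378.6 CPM at day 56, against 151.0 to 209.0 CPM at day 7. Atf3 rose by 0.69 (SE 0.19, edgeR adjusted p = 0.0225), with 15.7 to 37.1 CPM at day 56, against 12.8 to 20.3 CPM at day 7. The phosphatase gene thus separated the days fully, and the 3 factor genes did so only in most lungs.

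Egr1 and Junb had values at least as large as that of Atf3, with wider errors. Egr1 had a median of 115.0 CPM at day 56, from 31.7 to 385.0, against 38.8 CPM at day 7, from 25.4 to 50.6 (log2 fold change 1.76, SE 0.55, edgeR adjusted p = 0.0507). DESeq2 called Egr1 (adjusted p = 0.00692). Junb had 41.2 to 135.8 CPM at day 56, against 42.4 to 67.7 CPM at day 7 (log2 fold change 0.71, SE 0.27, edgeR adjusted p = 0.0899). Without the day 56 lung IL6KO 3, the lowest for Junb, both were called (adjusted p = 0.013 for Egr1 and 0.00297 for Junb in edgeR). Fos, at 0.18 (SE 0.39, edgeR adjusted p = 0.779), and Fosb, at -0.07 (SE 0.21, edgeR adjusted p = 0.850), were not called, and Jund stood at 0.25 (SE 0.16, edgeR adjusted p = 0.291). The days overlapped for all 3: Fos had 9.03 to 28.3 CPM at day 56, against 7.76 to 22.3 CPM at day 7, Fosb had 4.65 to 7.52 CPM at day 56, against 3.43 to 7.98 CPM at day 7, and Jund had 99.8 to 201.1 CPM at day 56, against 89.6 to 129.3 CPM at day 7. Fos and Fosb, with the largest fitted changes between isolates and lung, had the smallest between the days.

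The rise between the days was not called evenly in each genotype taken alone. In IL6KO lungs alone 3 of the 9 passed, where 1223 of all 13604 genes did. In WT lungs alone 1 of the 9 passed, Dusp1, where 1478 of all 13637 genes did. The Jun call was lost in either (adjusted p = 0.125 in IL6KO and 0.0822 in WT, edgeR). Atf3 and Nr4a1 were lost in WT (adjusted p = 0.356 and 0.233 in edgeR). The Atf3 call also ended without IL6KO lung 3 of day 56 (adjusted p = 0.0508), without IL6KO lung 2 of day 7 (0.0583) and without WT lung 1 of day 7 (0.0531 in edgeR). The difference itself, tested as the genotype effect at day 56 minus that at day 7, gave 0 calls among the 9 in edgeR, DESeq2 and limma-voom, and no gene of the 9 had an unadjusted p below 0.05. Over all 13865 genes the contrast called 0% in edgeR (1043 genes with an unadjusted p below 0.05), 47 genes in DESeq2 and 0 in limma-voom.

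Of 39 other immediate early genes, 12 rose and 2 fell between day 56 and day 7, with a median of 0.24. Csrnp1 rose by 1.18 (SE 0.14), Nfkbia, the inhibitor of NF-kappaB, by 1.12 (SE 0.18), Sik1, a kinase of the cAMP pathway, by 1.00 (SE 0.13), and Ppp1r15a, a stress phosphatase subunit, by 0.55 (SE 0.10). Of 14 other AP-1 family genes, Maff rose by 0.63 (SE 0.20) and Mafk by 0.20 (SE 0.07), and of 21 upstream genes, Elk4 rose by 0.27 (SE 0.07). Cell markers moved between the days too. All 9 CD8 T and NK cell markers rose (median 0.89), as did 5 of 16 T cell markers (median 0.41) and 6 of 8 B cell markers (median 0.62), while 6 of 8 smooth muscle, 4 of 7 fibroblast and 4 of 4 erythroid markers fell (medians -0.65, -0.59 and -2.22). The part of these cells in the rise of Dusp1, Nr4a1, Atf3 and Jun was not tested.

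Single lungs differed more at day 56 than at day 7 for most of the 9 genes, and several of the genes differed together. The highest lung over the lowest of the same genotype was 8.86-fold for Egr1 in IL6KO and 5.25-fold in WT at day 56, against 1.39-fold in IL6KO and 1.99-fold in WT at day 7. For Junb it was 3.29-fold in IL6KO and 1.95-fold in WT at day 56, against 1.22-fold and 1.25-fold at day 7. Fos, Jun, Atf3, Dusp1 and Nr4a1 also spread more widely at day 56 in both genotypes. Fosb spread less, with 1.60-fold in IL6KO and 1.47-fold in WT, against 1.81-fold and 1.90-fold at day 7. Jund spread less in IL6KO, with 1.13-fold against 1.43-fold, and more in WT, with 2.01-fold against 1.08-fold. Over all genes with enough counts, 2 lungs of a group differed by a chi-square per degree of freedom of 17.1 to 38.1 at day 56. At day 7 it was 8.60 to 26.3. At day 56, Egr1, Fos and Junb were each lowest among IL6KO lungs in lung 3 and each highest among WT lungs in lung 1. Fosb, Jund, Dusp1 and Nr4a1 were also lowest in IL6KO lung 3, whereas Atf3 and Jun were highest there, with 37.1 and 286.2 CPM. Over the 12 lungs, centred on the mean of their day, the 36 pairs of genes had a median Pearson r of 0.27, from -0.38 (Jund with Nr4a1) to 0.81 (Fos with Egr1), and 29 were positive. Fos with Junb reached 0.77 and Egr1 with Nr4a1 0.79. The r of Egr1 with Nr4a1 was 0.86 within day 56 and 0.03 within day 7. The libraries share their depth and their mix of cells across genes, so these values are a description.

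**Figure D4:**
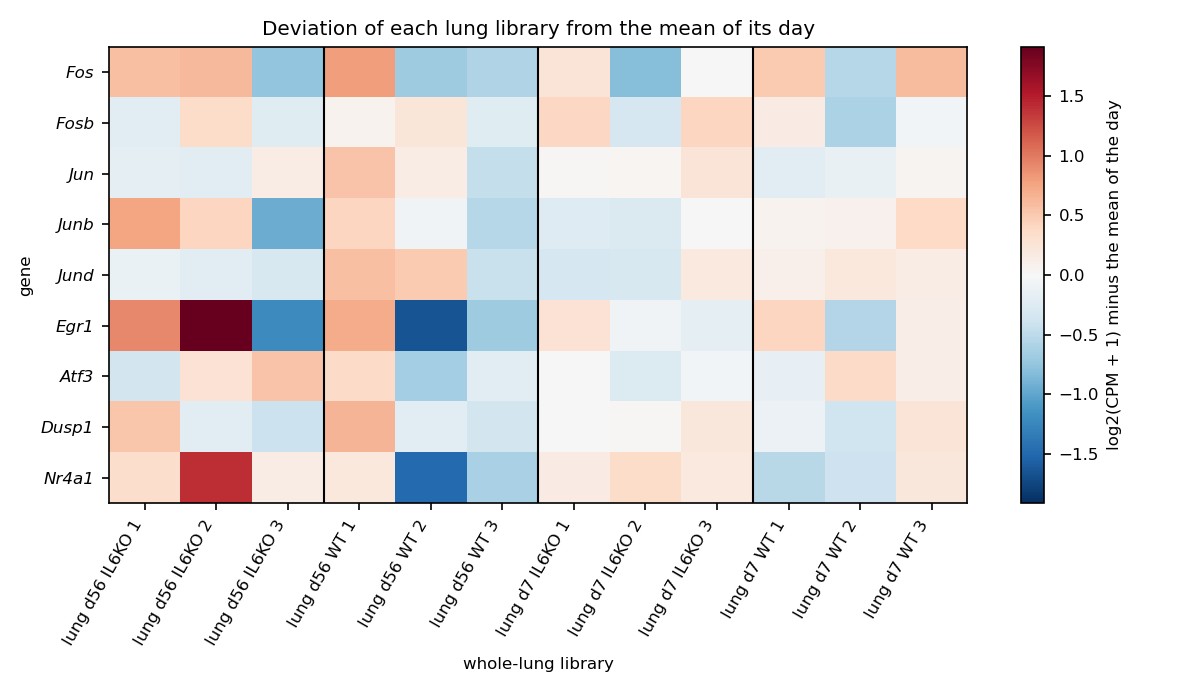
Deviation of each whole-lung library (columns) from the mean of its day, in log2(CPM + 1), for the 9 genes (rows). Red is above and blue below the mean. The widest deviations are those of Egr1 and Nr4a1 at day 56, where Egr1 ran from 31.7 to 385.0 CPM.

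Of 10856 genes ranked by their Pearson r with the mean of the 9 over the same 12 lungs, the 5 highest were Ppp1r15a (0.90), Btg2 (0.90), Ddx59 (0.90), Sv2a (0.86) and Adam33 (0.85). Ppp1r15a and Btg2 also stand in the list of other immediate early genes, and Ddx59, Sv2a and Adam33 do not. The mean was not scaled by gene, so Egr1 and Nr4a1, with the widest deviations, weigh most in it. These are the highest of 10856 values of r over 12 lungs and carry no test.

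In mouse splenic CD4+ T cells, none of the 10 genes passed the test between tdTomato-positive and tdTomato-negative cells. Each pair of fractions came from 1 mouse, and the fits given here did not use that pairing. The tests gave 0 calls among the 10 in edgeR (1 gene with an unadjusted p below 0.05), 0 in DESeq2 and 0 in limma-voom, and the background was 0.00902% of 11083 genes, 1 gene in all. With the mouse as a block edgeR also gave 0 calls among the 10. The fractions overlapped for all 10 genes, against 8.54% of all genes that lay apart in either direction. No other list had a called gene either, including 40 other immediate early and 11 other AP-1 family genes tested. The 12 macrophage markers summed to 65.9 to 92.3 CPM in tdTomato-positive cells, against 35.8 to 54.7 CPM in tdTomato-negative cells, and their part in these values was not tested.

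The most even pattern was that of Jund, which was lower in the tdTomato-positive fraction of all 3 mice: 457.0, 486.9 and 347.7 CPM in tdTomato-positive cells of mice 1 to 3, against 613.5, 599.1 and 441.5 CPM in their tdTomato-negative cells. Its log2 fold change of -0.39 (SE 0.15) had an edgeR adjusted p of 0.998, and with the mouse as a block it was -0.39 with an edgeR adjusted p of 0.776. Fos and Egr1 were higher in the tdTomato-positive fraction of all 3 mice by small amounts. The share of all genes that kept the same direction in all 3 mice is not given here. Fos had 192.3, 123.7 and 132.7 CPM in tdTomato-positive cells, against 188.7, 115.9 and 113.1 CPM in tdTomato-negative cells (log2 fold change 0.07, SE 0.21, edgeR adjusted p = 0.998). Atf3 was low, with 133, 37 and 14 counts in tdTomato-positive cells, against 56, 5 and 18 counts in tdTomato-negative cells, and its log2 fold change of 1.01 (SE 0.83) had a 95% interval from -0.77 to 2.79. Ier2, an early response gene of uncertain molecular role, had 419.3, 395.3 and 288.5 CPM in tdTomato-positive cells, against 415.2, 413.6 and 382.2 CPM in tdTomato-negative cells (log2 fold change -0.17, SE 0.14, edgeR adjusted p = 0.998). In both Atf3 and Ier2 the fractions overlapped. Junb had 6288 and 6630 CPM in the positive and negative cells of mouse 1, 4250 and 3954 CPM in those of mouse 2, and 3295 and 4512 CPM in those of mouse 3. The 95% interval of its log2 fold change ran from -0.71 to 0.38. The remaining genes had overlapping ranges as well: 359 to 432 CPM in tdTomato-positive cells, against 353 to 455 CPM in tdTomato-negative cells, for Jun, 494 to 886 against 470.2 to 834 CPM for Dusp1, 375 to 639 against 268 to 650.1 CPM for Nr4a1, 147 to 201 against 109 to 184 CPM for Egr1, and 3.67 to 5.41 against 4.14 to 7.14 CPM for Fosb, each with the tdTomato-positive range named before the tdTomato-negative one.

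**Figure D5:**
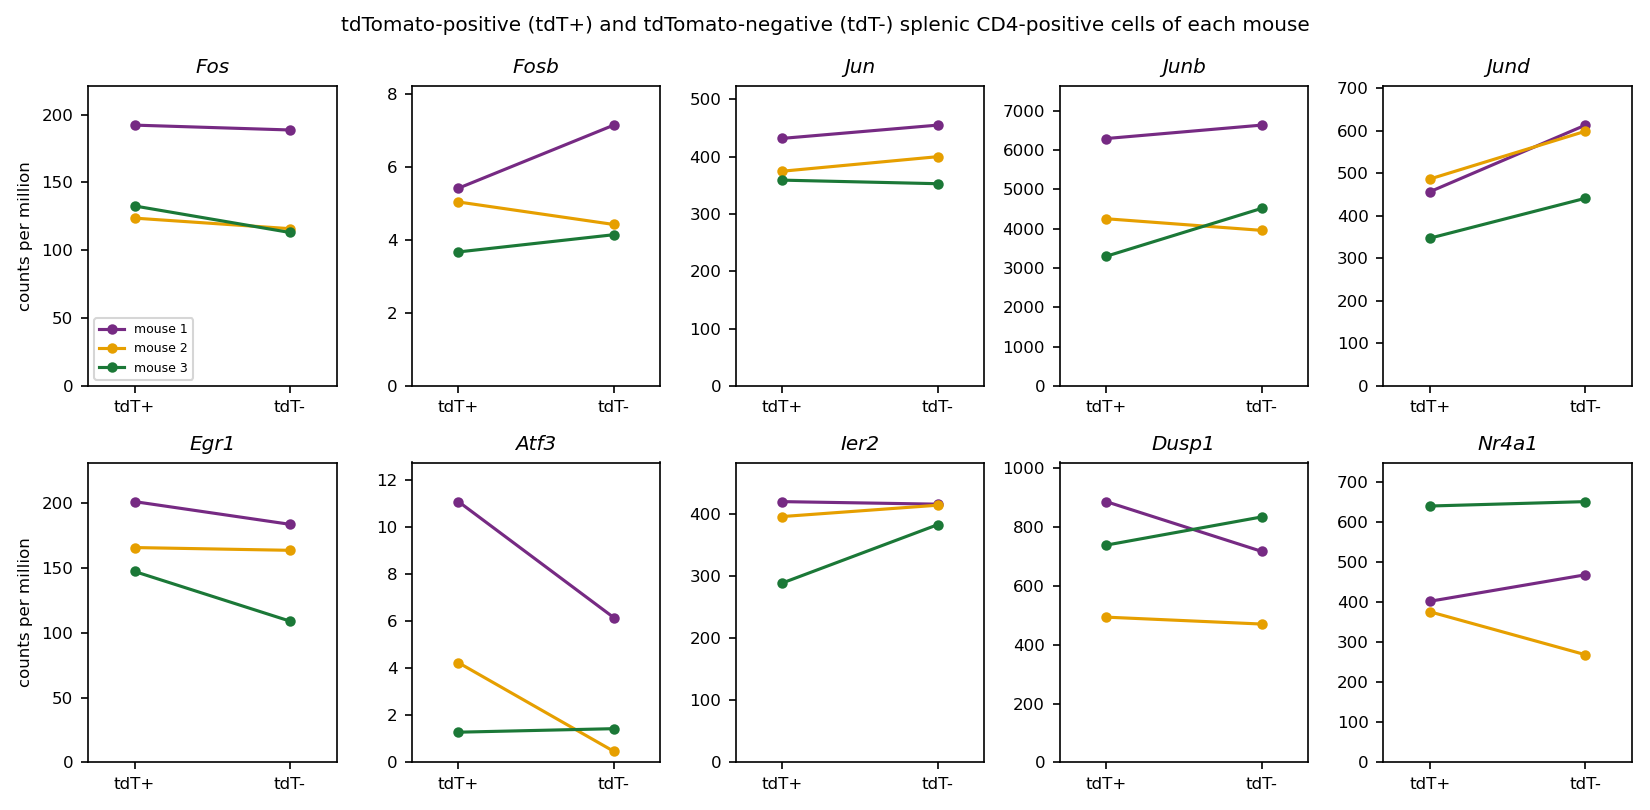
CPM of the 10 genes in tdTomato-positive (tdT+) and tdTomato-negative (tdT-) splenic CD4+ T cells, with a line joining the fractions of each mouse and each axis starting at 0. Jund, which was not called, was lower in the tdTomato-positive cells of each mouse, from 347.7 to 486.9 CPM, against 441.5 to 613.5 CPM in tdTomato-negative cells.

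The mouse table allowed levels to be compared between genes per length, as CPM per kilobase of annotated exons (GRCm38). Junb led by far, with 2004 ± 664 in tdTomato-positive and 2187 ± 613 in tdTomato-negative cells (SD, n = 3 each). Jund followed with 258 ± 43.9 and 331 ± 57.2, and Ier2 had 242 ± 45.8 and 265 ± 12.2, in the same order of fractions. Dusp1 had 213 ± 59.9 in tdTomato-positive and 204 ± 56.1 in tdTomato-negative cells, Nr4a1 135 ± 41.4 and 132 ± 54.4, and Jun 122 ± 12 and 126 ± 16. The order from Jund down to Jun is not firm, because the libraries of neighbours overlap. Fos (63.6 ± 15.9 in tdTomato-positive and 59.2 ± 18.2 in tdTomato-negative cells), Egr1 (38.2 ± 6.11 and 33.9 ± 8.62) and Atf3 (2.57 ± 2.33 and 1.25 ± 1.41) came next, and Fosb had 0.754 ± 0.147 and 0.838 ± 0.265. The libraries of Fos and Egr1 did not overlap in either fraction, and those of Atf3 and Fosb overlapped in both. Junb (chr8:84974484-84978718, minus strand), Jund (chr8:70698949-70700616, plus strand) and Ier2 (chr8:84661331-84662852, minus strand) share a mouse chromosome.

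The rat lung isolates and the mouse splenic cells differ in species, organ, disease model and sorting method, so their levels are set side by side without a test. Fosb had 405.2 to 605.0 CPM in the 4 lung isolates and 3.67 to 7.14 CPM in the 6 splenic libraries. Atf3 had 90.7 to 166.2 CPM in the lung isolates and 0.470 to 11.1 CPM in the splenic libraries, and Fos had 759.7 to 1479 CPM and 113.1 to 192.3 CPM in the same order. Junb went the other way, with 1029 to 1249 CPM in lung isolates and 3295 to 6630 CPM in splenic cells. Jund and Egr1 had overlapping ranges: 438.4 to 529.6 CPM and 173.0 to 258.6 CPM in lung isolates, and 347.7 to 613.5 CPM and 109.1 to 201.3 CPM in splenic cells.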

How the data were processed

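RNA-seq counts per gene from 22 libraries were used. The authors deposited them as raw whole-number counts, 1 column for each library, as stated in the file headers. The submitters' processing notes name GRCm38, also for the rat samples. Aligner, counter and annotation: not given in the sources used here. Each of the 22 columns matched a sample by name.

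The genes and gene lists were chosen with earlier results of these data known. All 10 members are named, and from each other list up to 4 called genes by smallest p, with Ccn1 and Ccn2 added after their values were seen. One gene that this rule would name is not reported here. After filterByExpr and TMM scaling, edgeR 4.0.16 (quasi-likelihood F test with robust dispersion, R 4.3.3) was run on whole tables. Adjusted p is Benjamini-Hochberg over all genes tested, and genes were called under 0.05. SE is that of the log2 fold change. CPM were not rescaled. Comparisons across tables used the symbols in both, 22071 for day 7 lung and isolates and 20230 for the 2 days.

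Alternatives were DESeq2 1.42.0, limma-voom (limma 3.58.1), RLE size factors, library totals alone, no filter, a mean of at least 5 CPM, a count in each table, each genotype alone, the replicate number as a block, and omission of single libraries. Splenic fractions of 1 number come from the same mouse, per the labels, and their deviations from the group means correlated at 0.03, 0.12 and 0.12 across genes. No label says that rat libraries of 1 number are pairs. In day 7 lung, the 2 genotypes correlated at 0.06, 0.08 and 0.26 for the same number, against -0.17 to 0.11 for different numbers. In day 56 lung the values were -0.16, -0.07 and -0.03 for the same number, against -0.05 to 0.12 for different numbers. In isolates the same-number values were -0.00036. The fits were tested on simulated counts. A count of 0 in a library allows up to 3 counts, which covers counting error only. Promoters come from RefSeq GRCr8, matched by symbol for 7 members, of which 6 were searched.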

Additional observations from a re-analysis of the deposited data

Results flagged for a closer look

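Of the 9 genes, Atf3 passed a test of whether the genotype effect differs between isolated cells and tissue at day 7: 0.85 on the log2 scale (SE 0.21, adjusted p = 0.0326 in edgeR), the IL6KO minus WT value in lung CD4-positive cells minus that in whole lung. Atf3 was higher in both IL6KO isolates than in either WT isolate, and overlapped between genotypes in lung. The same test called 6.42% of all genes, and 1 of the 9 is not far from that share. The call held in 8 of 17 alternatives. It was lost in limma-voom, with the replicate number as a block and without any 1 of 7 of the 10 libraries.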

How the results depend on the processing

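All 9 immediate early genes were higher in lung CD4-positive cells than in day 7 lung and were called in each of the 20 alternatives run. Of 1163 values of single genes under alternatives, 1080 kept direction and side of the threshold, 22 lost a call, 18 gained one and 43 changed sign. Among the 9 genes, DESeq2 called 5 between IL6KO and WT isolates, with Fos and Jun added to those of edgeR. Its count over all genes in that comparison is not given here, so the 5 have no background beside them. Limma-voom called 0 of the 9 for the genotype difference in isolates minus that in lung. WT libraries alone gave 1 call among the 9 between the days. Over all genes, DESeq2 called 565 for genotype in day 7 lung, 175 in day 56 lung, 47 for genotype by day and 2 between splenic fractions. Limma-voom called 4 in day 56 lung, 551 for isolates minus lung and 0 in spleen. Without the filter 7 genes were called in day 56 lung. Between the days IL6KO libraries alone gave 1223 genes and WT libraries alone 1478. The causes were not tested. Fits of 1 genotype hold fewer samples, and the part of this in their counts was not tested either.

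Values near 0 changed sign. Egr1 in day 7 lung was 0.045 in limma-voom. Nr4a1 for isolates minus lung was 0.029 with library totals alone and 0.0052 at a mean of at least 5 CPM. In WT libraries alone Fos was -0.14 and Fosb 0.17 between the days.

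With the replicate number as a block, which has a basis in the labels only for the splenic mice, 3 genes were called between splenic fractions and 0 of the 10. In rat, no label says that shared numbers are pairs. There the block gave 1 of the 9 (Junb) and 543 genes in day 7 lung, with Egr1 at 0.0090. The block gave 0 genes in day 56 lung, and 0 of the 9 for isolates minus lung. It added Jun between IL6KO and WT isolates (adjusted p = 0.00481, edgeR).

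Leaving out single libraries moved the counts of the 9 genes to between 0 and 1 in day 7 lung, 0 and 1 in day 56 lung, 0 and 3 in isolates, and 0 and 1 for isolates minus lung. Counts over all genes ran from 94 to 372 in day 7 lung, 1 to 1268 in day 56 lung, 76 to 970 in isolates, 341 to 1111 for isolates minus lung, 0 to 597 for genotype by day, and 0 to 1 in spleen. These log2 values crossed 0. In day 7 lung, Egr1 ran from -0.26 to 0.21. In day 56 lung, Fos ran from -0.020 to 0.94, Fosb from -0.30 to 0.076, Jun from -0.45 to 0.025, Junb from -0.13 to 0.61 and Dusp1 from -0.44 to 0.30. In isolates, Junb ran from -0.21 to 0.076. For isolates minus lung, Fosb ran from -0.35 to 0.13 and Nr4a1 from -0.36 to 0.14. Between the days, Fos ran from -0.17 to 0.35 and Fosb from -0.19 to 0.033. For genotype by day, Dusp1 ran from -0.59 to 0.16. In spleen, Fos ran from -0.15 to 0.38, Fosb from -0.33 to 0.13, Jun from -0.17 to 0.038, Junb from -0.45 to 0.11, Egr1 from -0.048 to 0.32, Atf3 from -0.0032 to 2.51, Dusp1 from -0.17 to 0.25 and Nr4a1 from -0.27 to 0.33.

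The isolates have 2 libraries of each genotype, and a fit without 1 of them assumes that the lone library varies like the others. Splenic Atf3 and Fosb had few counts, and Il6 too few to check the genotype. Whole lung mixes cell types, and isolates held markers of cells other than T cells. Prior handling of the isolates was not measured.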
